A study of Mus musculus with 12 samples.

Results

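The genes for the subunits of activator protein 1 (AP-1) and their partners were followed as 10 genes chosen by symbol, namely Fos, Fosb, Fosl1, Fosl2, Jun, Junb, Jund, Batf, Batf3 and Irf4, out of 55536 annotated genes in the count table. Of these 10 genes, 9 passed the filter on low counts and Fosl1 did not, against 18817 genes in all. The cells were mouse CD8+ T cells carrying the OT-I T cell receptor transgene, which recognizes a peptide of ovalbumin. In the Ag group (5 libraries), OT-I cells were transferred into C57BL/6J mice that then received the peptide with control IgG. In the Ag+Costim group (5 libraries), the recipients received the peptide with agonist antibodies against CD134 (OX40) and CD137 (4-1BB), a pair of costimulatory receptors of the TNF receptor family. Per the labels, spleen and lymph nodes were taken after 4 days and CD8+ T cells were sorted, and the methods give a slightly shorter time and a gate on CD8, CD45.1, Vα2 and Vβ5, which would leave out host B, myeloid and dendritic cells. The Naive group (2 libraries) was purified from OT-I mice without transfer or treatment, so transfer, host and antigen cannot be told apart in any comparison with Naive. The OT-I donors lacked Rag1 or Rag2 according to the methods, and the labels give neither that genotype nor an age. Nothing in the labels says how many animals made up a library, and p-values here measure the spread between these libraries.

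Fos and Jun proteins are basic leucine zipper (bZIP) factors that bind DNA as dimers, and transcription of Fos and Jun genes follows T cell receptor signalling through MAP kinases. BATF and BATF3 are short bZIP proteins without a transactivation domain that pair with Jun proteins. IRF4 binds next to BATF-Jun dimers at composite elements, and BATF and IRF4 are both needed for the expansion and effector program of CD8+ T cells, while dimers of Fos and Jun cooperate with NFAT at cytokine genes.

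Libraries held 24006053 to 49294934 counts over annotated genes, with the lowest total in Ag 4 and at least 40028682 in each of the other 11. CD8+ identity was borne out by Cd8a at 504 to 1302 CPM (gene counts scaled to library size by edgeR's TMM method) and by Cd4 at 2.44 CPM or less in every library. The 7 T cell markers summed to 10850 and 11486 CPM in Naive, to 9407 to 13493 CPM in Ag and to 5451 to 7484 CPM in Ag+Costim. Of the 7, 6 were called lower in Ag+Costim than in Ag, beside 26.5% over all genes. In bulk samples, fewer cells of a type and less RNA per cell cannot be told apart. All 4 proliferation markers were called higher in Ag+Costim than in Ag, beside 26.6% over all genes. Their sums were 22.2 and 24.5 CPM in Naive, 279 to 551 CPM in Ag and 1343 to 1770 CPM in Ag+Costim. Y-linked transcripts were present in replicates 1 and 2 of Ag and Ag+Costim and in Naive 1, at 146 to 276 CPM in sum, and at 0.104 to 3.68 CPM in the other 7 libraries. Differences in mean log2 CPM within each of these 2 classes, without a test, are given for genes whose direction turned or whose size moved most, and in comparisons with Naive each class holds 1 Naive library. Comparisons used the quasi-likelihood test of edgeR, fitted to all 12 libraries at once, with changes given as log2 ratios, and a gene was called at a Benjamini-Hochberg adjusted p below 0.05 over all tested genes.

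Most of the AP-1 message in these cells was Jund, Junb and Batf. Compared per length as FPKM (fragments scaled by transcript length and by library size), the order in Naive was Junb (134 ± 9.78, SD, n = 2), Jund (124 ± 1.35) and Batf (73.4 ± 3.52), and no other gene of the 10 exceeded 4.31 FPKM in either library. In Ag the order was Jund (219 ± 22.6, SD, n = 5), Batf (170.2 ± 14.8) and Junb (121 ± 16.5), and these 3 levels did not overlap. In Ag+Costim it was Batf (179.7 ± 29.0, SD, n = 5), Jund (91.4 ± 14.5) and Junb (88.2 ± 11.97), where Jund and Junb overlapped and Batf lay above both. Irf4 held rank 8 in Naive (0.221 ± 0.110), rank 7 in Ag (1.51 ± 0.351) and rank 4 in Ag+Costim (5.21 ± 1.68), where it overlapped with Batf3 (4.50 ± 2.48). Fos held rank 4 in Naive (3.45 ± 1.22) and Ag (2.53 ± 0.711) and rank 7 in Ag+Costim (0.710 ± 0.287), where it overlapped with Fosl2 (0.499 ± 0.132). Neighbours that overlapped were Fos with Jun in Naive and Ag, Batf3 with Jun and with Irf4 in Ag, Batf3 with Irf4 in Naive, and Fosb with Fosl1 in Ag and Ag+Costim.

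Within a library, Batf made up 20.5% and 22.7% of the summed FPKM of the 10 genes in Naive, 27.1% to 36.3% in Ag and 45.6% to 50.8% in Ag+Costim. Jund made up 36.1% and 36.8% in Naive, 40.0% to 46.5% in Ag and 23.0% to 27.1% in Ag+Costim. Junb had 38.2% and 40.9% in Naive, 20.3% to 26.8% in Ag and 21.5% to 28.4% in Ag+Costim. The groups thus differed in composition with no overlap for Batf or for Jund between any pair of groups, whereas Junb shares overlapped between Ag and Ag+Costim. Mean Batf itself was 170.2 FPKM in Ag and 179.7 FPKM in Ag+Costim. Its larger share in Ag+Costim thus came with lower Jund (219 to 91.4 FPKM) and Junb (121 to 88.2 FPKM). These shares are a description without a test, and the sum itself ranged from 334 and 345 FPKM in Naive through 491 to 551 FPKM in Ag, then 325 to 429 FPKM in Ag+Costim.

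**Figure D1:**
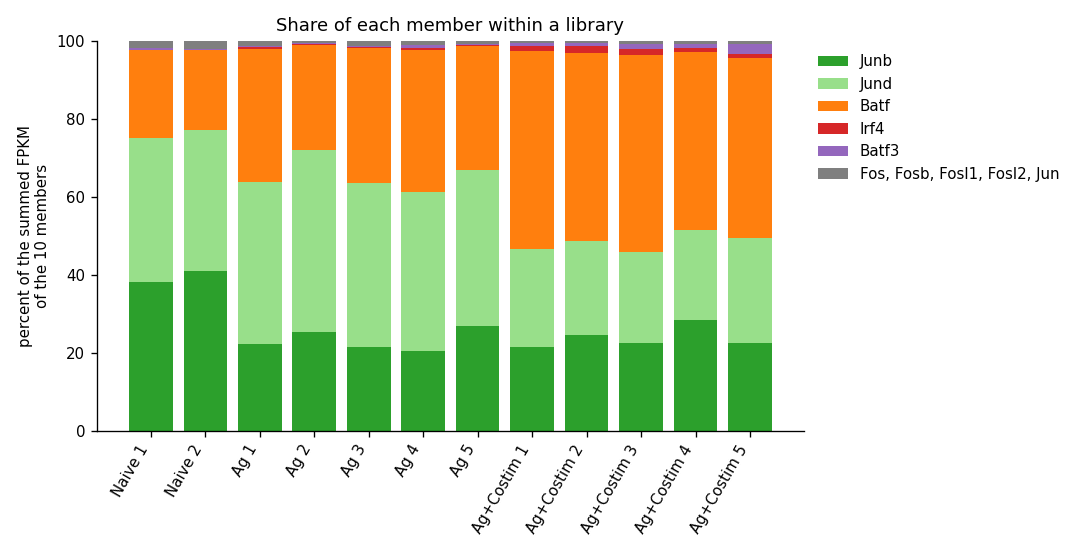
Stacked bars give the percent of the summed FPKM of the 10 genes that each gene holds, for each of the 12 libraries (vertical axis, 0 to 100%). Junb, Jund and Batf fill nearly all of every bar, and Batf rises from 20.5% and 22.7% in Naive to at least 45.6% in each Ag+Costim library.

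Of the 9 genes tested, Ag+Costim against Ag called 5 (2 higher and 3 lower), Ag against Naive called 4 (3 higher and 1 lower) and Ag+Costim against Naive called 6 (3 higher and 3 lower). Over all genes tested, 53.1% were called between Ag+Costim and Ag (26.6% higher and 26.5% lower), 46.7% between Ag and Naive (24.2% higher and 22.5% lower) and 52.3% between Ag+Costim and Naive (26.9% higher and 25.4% lower). The number called among the AP-1, BATF and IRF4 genes was therefore near the background, and their sizes and directions are described gene by gene. The median log2 ratio over all genes was -0.05, 0.02 and -0.02 in these 3 comparisons, and upper-quartile scaling moved the first to -0.24 and the last to -0.18. The 3 comparisons share libraries with each other and are not independent.

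**Figure D2:**
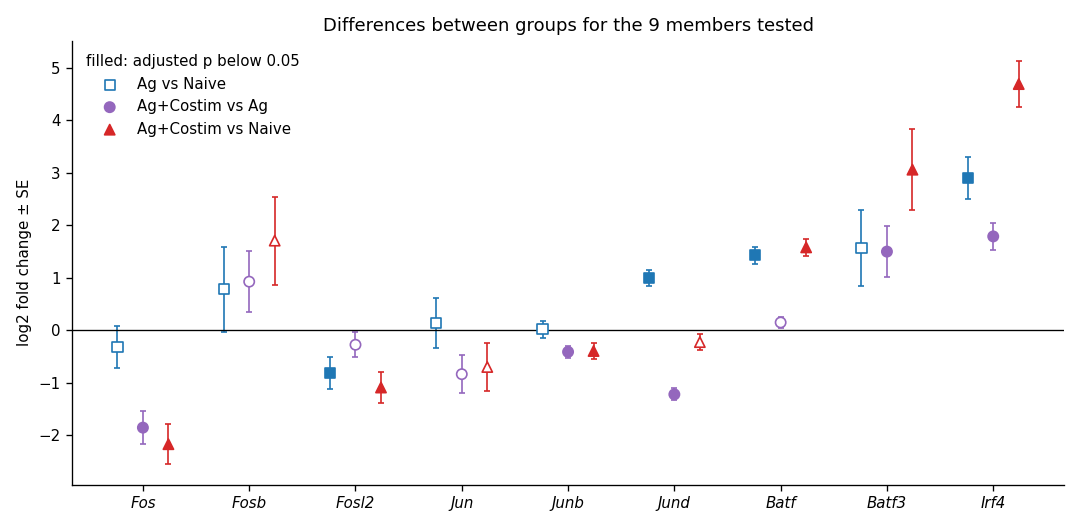
Log2 fold changes (vertical axis) with their standard errors from edgeR are plotted for the 9 genes tested in 3 comparisons, with filled markers at an adjusted p below 0.05. Irf4 is filled above 0 in all 3 comparisons, Fos and Junb are filled below 0 against Ag and against Naive in Ag+Costim, and Jund is filled above 0 in Ag against Naive and below 0 in Ag+Costim against Ag.

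Fos (ENSMUSG00000021250.13, chromosome 12 of mm10, 85473890 to 85477273, plus strand) encodes the inducible subunit that has given AP-1 its best known dimer. Its level was 4.65 and 8.08 CPM in the Naive libraries. In Ag 1 to 5 it was 4.65, 3.27, 7.78, 4.83 and 5.05 CPM, and in Ag+Costim 1 to 5 it was 0.972, 0.820, 1.16, 2.30 and 1.82 CPM. All 5 Ag+Costim libraries lay below every Ag and every Naive library, while Ag and Naive overlapped. Fos was 3.62-fold lower in Ag+Costim than in Ag, a log2 ratio of -1.85 (SE 0.32, edgeR adjusted p = 0.000257), and 4.50-fold lower than in Naive (log2 ratio -2.17, SE 0.38, edgeR adjusted p = 0.000361). Between Ag and Naive the log2 ratio was -0.32 (SE 0.40, edgeR adjusted p = 0.545), and it became 0.14 without Naive 2.

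The other Fos family genes were near the limit of detection or not called between Ag+Costim and Ag. Fosb (ENSMUSG00000003545.3, chromosome 7, 19302696 to 19310051, minus strand) encodes a second inducible Fos protein and lay between 0.132 and 1.01 CPM in all libraries. Its log2 ratio was 0.92 (SE 0.58) in Ag+Costim against Ag and 0.78 (SE 0.81) in Ag against Naive, and neither was called. The difference of Ag from Naive in mean log2 CPM was -0.90 in the libraries with Y-linked transcripts, and in those without the mean was higher in Ag (-0.77) than in Naive (-2.37). The Ag+Costim and Ag libraries overlapped, and Ag+Costim 2 (0.200 CPM) was low beside 0.686 to 1.01 CPM in the other 4. Fosl1 (ENSMUSG00000024912.6, chromosome 19, 5447547 to 5455946, plus strand), for a Fos-related antigen, had 0 counts in both Naive libraries, 0 to 7 in Ag and 0 to 9 in Ag+Costim. A count of 0 allows up to 3 counts, or 0.0617 to 0.119 CPM over the libraries, and no fold is given because the levels lie at that floor. Part of Fosl1 also overlaps Ccdc85b on the other strand, and it is not stated whether counting used strand.

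Fosl2 (ENSMUSG00000029135.10, chromosome 5, 32135801 to 32157842, plus strand) encodes the Fos-related antigen that binds many of the same sites as BATF. The Naive libraries had 6.36 and 6.43 CPM. Levels were 4.15, 2.51, 3.70, 5.22 and 2.65 CPM in Ag 1 to 5 and 2.75, 4.46, 2.64, 2.42 and 2.73 CPM in Ag+Costim 1 to 5. Both treated groups lay below Naive without overlap and overlapped with each other. It was called lower in Ag than in Naive by a log2 ratio of -0.81 (SE 0.30, edgeR adjusted p = 0.0386), and this call was lost without Naive 1, Naive 2, Ag 2, Ag 3 or Ag 5, with log2 ratios of -0.82, -0.81, -0.71, -0.82 and -0.72. Fosl2 was 2.13-fold lower in Ag+Costim than in Naive (log2 ratio -1.09, SE 0.30, edgeR adjusted p = 0.00725). Between Ag+Costim and Ag the log2 ratio was -0.28 (SE 0.24, edgeR adjusted p = 0.347), and it was called lower at -0.61 once each library's trend with gene length was removed. The difference in mean log2 CPM was 0.12 in the libraries with Y-linked transcripts (2 against 2) and -0.51 in those without (3 against 3).

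Among the Jun genes, Jund showed the largest fall with costimulation. Jund (ENSMUSG00000071076.6, chromosome 8, 70698949 to 70700616, plus strand, a single exon) encodes a Jun protein that is present in resting cells. It stood at 186 and 188 CPM in Naive, at 360.5, 429.6, 402, 323 and 349 CPM in Ag 1 to 5 and at 183, 182, 138, 131 and 165 CPM in Ag+Costim 1 to 5. Every Ag library was above every Naive and Ag+Costim library, and the Ag+Costim libraries were all below Naive. Jund rose 1.99-fold from Naive to Ag (log2 ratio 1.00, SE 0.16, edgeR adjusted p = 0.000170) and was 2.33-fold lower in Ag+Costim than in Ag (log2 ratio -1.22, SE 0.11, edgeR adjusted p = 1.11e-06). Against Naive, Ag+Costim had a log2 ratio of -0.23 (SE 0.15, edgeR adjusted p = 0.209), which upper-quartile scaling (-0.38) and log2(FPKM + 1) (-0.45) took past the threshold.

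Junb and Jun differed less. Junb (ENSMUSG00000052837.6, chromosome 8, 84974484 to 84978718, minus strand), whose protein is a dimer partner of BATF in T cells, had 209.6 and 231 CPM in Naive. Ag 1 to 5 had 211, 254, 222, 173 and 254 CPM, and Ag+Costim 1 to 5 had 169.6, 199, 145, 175 and 148 CPM. Ag and Ag+Costim overlapped through Ag 4, the lowest Ag library, and all Ag+Costim libraries were below Naive. It was 1.33-fold lower in Ag+Costim than in Ag (log2 ratio -0.41, SE 0.12, edgeR adjusted p = 0.00942), a call that was lost with the length trend removed (-0.21). Against Naive the log2 ratio was -0.40 (SE 0.15, edgeR adjusted p = 0.0435) and the call was lost without Naive 1 (-0.47), Naive 2 (-0.33), Ag+Costim 1 (-0.40), 3 (-0.35), 4 (-0.40) or 5 (-0.35), or Ag 1 or 3 (-0.40 each). From Naive to Ag the log2 ratio was 0.02 (SE 0.16), and the difference in mean log2 CPM was 0.14 in the libraries with Y-linked transcripts and -0.11 in those without.

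Jun (ENSMUSG00000052684.4, chromosome 4, 95049034 to 95052222, minus strand) encodes c-Jun, which activates its own gene. Naive libraries had 8.03 and 6.45 CPM, and Ag 1 to 5 had 15.5, 2.53, 10.5, 5.26 and 5.94 CPM. Ag+Costim 1 to 5 had 4.48, 5.28, 4.65, 3.56 and 4.28 CPM. Ag spread from the lowest to the highest value of all 12 libraries, whereas the Ag+Costim libraries lay close together within that range. The log2 ratio in Ag+Costim against Ag was -0.84 (SE 0.36, edgeR adjusted p = 0.0694). It was called lower without Ag 2 (-1.07) and under upper-quartile scaling (-1.04) or DESeq2 (-0.83), and was -0.44 without Ag 1. Against Naive, Ag had a log2 ratio of 0.14 (SE 0.48) and Ag+Costim of -0.70 (SE 0.46), and neither was called. For Ag the difference from Naive in mean log2 CPM was -0.35 in the libraries with Y-linked transcripts and 0.097 in those without. Jun and Jund each overlap an antisense gene, Junos and Gm11175, and Junb overlaps Prdx2 on the other strand, so some of their reads may belong to those genes.

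**Figure D3:**
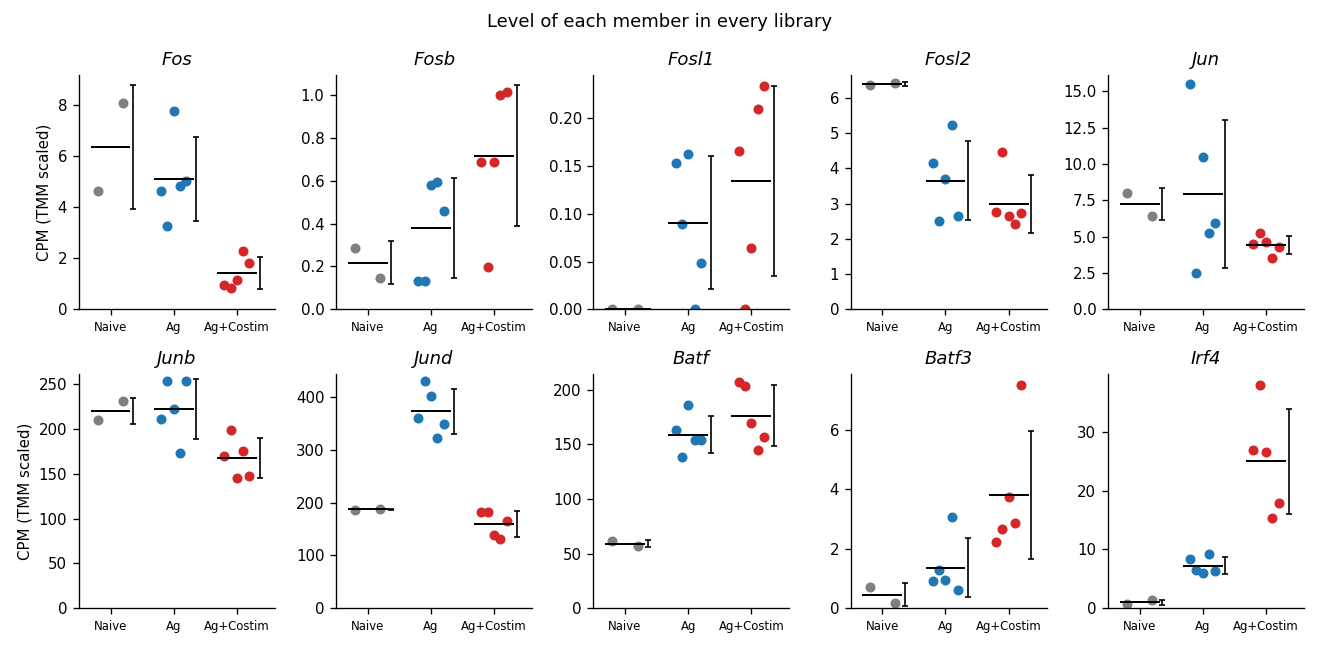
Points give the CPM (TMM scaled, linear axis from 0, own scale per panel) of each of the 10 genes in every library of Naive, Ag and Ag+Costim, with the mean as a line and the SD as a bar. Irf4 steps up from Naive to Ag to Ag+Costim without overlap, Jund is high in Ag alone, and Fos is low in all 5 Ag+Costim libraries.

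Batf rose with antigen and was not called between the antigen groups. Batf (ENSMUSG00000034266.6, chromosome 12, 85686669 to 85709087, plus strand) had 61.4 and 56.6 CPM in Naive, 163, 139, 186, 154 and 154 CPM in Ag 1 to 5 and 207, 203, 169, 145 and 156 CPM in Ag+Costim 1 to 5. Both antigen groups lay wholly above Naive and overlapped with each other. The rise from Naive was 2.69-fold in Ag (log2 ratio 1.43, SE 0.16, edgeR adjusted p = 1.12e-05) and 2.98-fold in Ag+Costim (log2 ratio 1.58, SE 0.16, edgeR adjusted p = 3.69e-06). Between Ag+Costim and Ag the log2 ratio was 0.15 (SE 0.11, edgeR adjusted p = 0.292). It was -0.052 under upper-quartile scaling and was called higher at 0.40 with the length trend removed. In the libraries with Y-linked transcripts the difference in mean log2 CPM was 0.45 (2 against 2), and in those without it was -0.07 (3 against 3).

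Batf3 (ENSMUSG00000026630.9, chromosome 1, 191097847 to 191108945, plus strand), a close relative of Batf that is also required for cross-presenting dendritic cells, was low throughout. It had 0.720 and 0.189 CPM in Naive, 0.899, 1.30, 0.932, 3.09 and 0.625 CPM in Ag 1 to 5 and 2.23, 2.68, 3.73, 2.89 and 7.53 CPM in Ag+Costim 1 to 5. Ag 4 stood above the other Ag libraries and inside the range of Ag+Costim, and Ag+Costim 5 stood above all others. The gene was 2.82-fold higher in Ag+Costim than in Ag (log2 ratio 1.497, SE 0.49, edgeR adjusted p = 0.0202). Without Ag+Costim 5 the log2 ratio was 1.09 and was not called, and without Ag 4 it was 2.01. Batf3 was 8.32-fold higher in Ag+Costim than in Naive (log2 ratio 3.06, SE 0.77, edgeR adjusted p = 0.00460), which became 2.39 and uncalled without Naive 2 and 4.30 without Naive 1. From Naive to Ag the log2 ratio of 1.56 (SE 0.72, edgeR adjusted p = 0.0923) was not called, and it ranged from 0.90 without Naive 2 to 2.81 without Naive 1. In the libraries with Y-linked transcripts the differences of Ag and Ag+Costim from Naive in mean log2 CPM were 0.56 and 1.70, and in those without they were 2.43 and 4.21.

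The dendritic cell markers did not move in one direction with Batf3. Of 6 tested, 1 was called above and 2 below Ag in Ag+Costim, near the 26.6% and 26.5% over all genes. The 7 listed summed to 27.5 and 57.9 CPM in Naive, 317 to 536 CPM in Ag and 206 to 417 CPM in Ag+Costim. Xcr1, a receptor of cross-presenting dendritic cells, had 2.12 to 4.43 CPM in Ag and 2.35 to 4.14 CPM in Ag+Costim, and Clec9a had at most 0.617 CPM in any library. Itgax, on the same list, had 6.78 to 24.6 CPM in Ag and 25.6 to 141 CPM in Ag+Costim, without overlap. Its highest Ag value lay in Ag 4, the Ag library with the highest Batf3, and its highest Ag+Costim value in Ag+Costim 4. Cd74 went the other way, from 239.9 to 433 CPM in Ag to 158 to 237.7 CPM in Ag+Costim. H2-Aa did too, from 61.5 to 92.4 CPM to 19.6 to 44.7 CPM. Siglech was at 0 in Naive and Ag. The highest Itgam, a myeloid integrin, was 31.7 CPM in Ag+Costim, and it lay in Ag+Costim 5, the library with the highest Batf3. The other markers on its list had their highest Ag+Costim values in other libraries. Lyz2 was lowest of the group in Ag+Costim 5 (47.0 CPM), and Csf1r had 16.1 CPM there beside 34.8 CPM in Ag+Costim 4. Of the 7 monocyte, macrophage and neutrophil markers, 3 were called higher, beside 26.6% over all genes. Their sums were 43.6 to 162 CPM in Ag and 77.4 to 121 CPM in Ag+Costim. Their part in the Batf3 difference was not tested.

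Irf4 rose from Naive to Ag and again from Ag to Ag+Costim. Irf4 (ENSMUSG00000021356.10, chromosome 13, 30749226 to 30766976, plus strand) encodes a factor whose level follows the strength of T cell receptor signals. It had 0.638 and 1.30 CPM in Naive, 8.34, 6.49, 5.94, 9.22 and 6.35 CPM in Ag 1 to 5 and 27.0, 38.1, 26.6, 15.4 and 17.9 CPM in Ag+Costim 1 to 5. The 3 groups did not overlap, and Ag+Costim 4 and 5 were the lowest of their group. It rose 7.47-fold from Naive to Ag (log2 ratio 2.90, SE 0.41, edgeR adjusted p = 6.80e-05). From Ag to Ag+Costim it rose 3.45-fold (log2 ratio 1.79, SE 0.25, edgeR adjusted p = 4.85e-05), and against Naive Ag+Costim was 25.7-fold higher (log2 ratio 4.69, SE 0.44, edgeR adjusted p = 1.74e-06). The Naive value rests on 31 and 62 counts. Without Naive 2 the log2 ratio to Naive was 3.50 in Ag and 5.28 in Ag+Costim, and without Naive 1 it was 2.47 and 4.26, all called. Within the libraries with Y-linked transcripts, the Ag+Costim minus Ag difference in mean log2 CPM was 2.12 (2 against 2), and within the others it was 1.46 (3 against 3).

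Because B and plasma cells also express Irf4, their markers are given beside it. Of 7 B and plasma cell markers, none was called above Ag in Ag+Costim and 3 were called below it, beside 26.6% and 26.5% over all genes. Their sums were 28.3 and 31.4 CPM in Naive, 133 to 166 CPM in Ag and 32.1 to 123 CPM in Ag+Costim. Sdc1, a plasma cell marker, had 0.601 to 1.38 CPM in Ag and 0.623 to 1.79 CPM in Ag+Costim. Jchain, on the same list, had 4.39 to 47.0 CPM in Ag and 3.04 to 75.4 CPM in Ag+Costim. Its highest Ag+Costim values were 75.4 CPM in Ag+Costim 4 and 36.7 CPM in Ag+Costim 5. The sums of the 7 markers rose together with Irf4 from Naive to Ag and were lower in Ag+Costim, where Irf4 was higher. The part of B and plasma cells in the Irf4 differences was not tested.

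The counts of Irf4 were assigned to different transcripts in Ag and Ag+Costim. Irf4-201 and Irf4-202 are protein-coding transcripts of 9 exons each that differ at the start of exon 5, where the acceptor site of Irf4-201 lies 3 bases upstream (chromosome 13, 30753445 to 30753447) and that of Irf4-202 begins exon 5 at 30753448. The junctions of exon 4 (ending at 30752779) with exon 5 are shown because these 3 bases alone tell the 2 transcripts apart, with the bases present only in Irf4-201 in capitals, 5′ to 3′, read from the GENCODE vM21 transcripts of GRCm38.
Irf4-201: tctctgccagcccagCAGgttcataactac
Irf4-202: tctctgccagcccaggttcataactac

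StringTie assigned 0 counts to Irf4-202 in all 5 Ag libraries, where Irf4-201 had 380, 290, 255, 233 and 264 counts. In Ag+Costim 1 to 5, Irf4-202 had 360, 312, 671, 409 and 424 counts beside 777, 1403, 570, 240 and 264 of Irf4-201. Every Ag+Costim library held Irf4-202, at 18.2% to 61.9% of the Irf4 counts. The Irf4-202 share was 31.6% and 18.2% in Ag+Costim 1 and 2, the libraries with Y-linked transcripts. It was 54.0%, 61.9% and 61.4% in Ag+Costim 3 to 5, those without, so the classes did not overlap. The mean Irf4-202 share was 0% ± 0 (SD, n = 5) in Ag and 45.4% ± 19.6 (SD, n = 5) in Ag+Costim. No p is given for this difference, because Irf4-202 entered the comparison only through its share in Ag+Costim and was at 0 in every Ag library. In Naive the counts were 31 and 18 for Irf4-201 and 0 and 44 for Irf4-202. Irf4-202 thus held 0% in Naive 1, with Y-linked transcripts, and 71.0% in Naive 2, without them. Transcript shares were compared in genes with at least 100 counts in every Ag and Ag+Costim library and with 2 transcripts that each averaged at least 10% in either group, and of the 10 genes Irf4 alone met this.

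The depth behind these assignments was unequal. Mean coverage of Irf4, taken as counts of 100 bases over the transcript length, was 4.89 to 7.98 in Ag, at least 13.6 in Ag+Costim and 0.651 and 1.30 in Naive, and only reads that cross the junction distinguish the 2 transcripts. Ag 1 held 45980125 gene counts from 44171082 reads, of which 74.5% aligned, so a count is not 1 aligned read. These coverages may therefore be too high. A second measure, Psi from Whippet (the share of reads at an exon part, or node, that contain it, 1 pooled value per group from the authors, with no replicates and no test here), did not give 0 exclusion in Ag. Psi of the 3-base node was 0.873 in Ag and 0.581 in Ag+Costim, a difference of -0.29. The nodes on either side had Psi of 0.875 and 0.858 in Ag and of 0.960 and 0.965 in Ag+Costim. The 3-base node thus stood apart from its neighbours in Ag+Costim and was level with them in Ag. Among the 7 Irf4 nodes in the Whippet table, the rest of exon 5 and the exon after it also differed by at least 0.1, both higher in Ag+Costim, by 0.11 each. No node of Batf, Batf3, Fos or Fosb differed by that much.

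**Figure D4:**
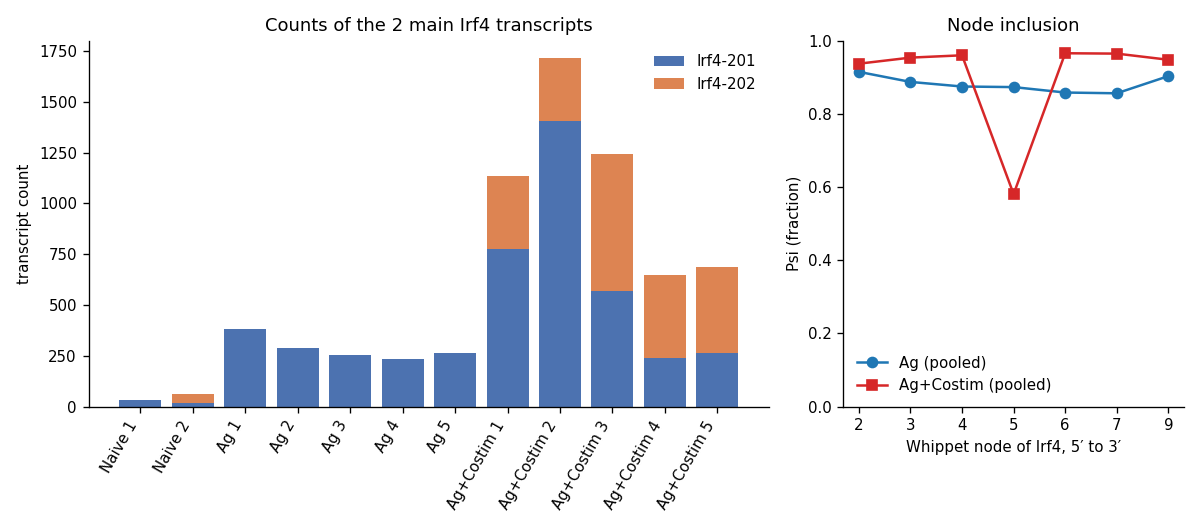
The left panel stacks the counts of Irf4-201 and Irf4-202 for each library, and the right panel plots Psi (0 to 1) of 7 Irf4 nodes in Ag and Ag+Costim as pooled by the authors, without error bars. Irf4-202 is assigned no counts in the 5 Ag libraries and 312 to 671 in the 5 Ag+Costim libraries, and the dip to 0.581 in Ag+Costim is the 3-base node.

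Other transcripts showed less. Batf-202, a retained intron, held 9.22% and 10.1% of the Batf counts in Naive, 3.74% to 8.40% in Ag and 2.41% to 3.64% in Ag+Costim, so that the coding transcript Batf-201 held at least 89.9% in every library. Ag and Ag+Costim did not overlap in this share. Fos-201, the coding transcript of Fos, held 63.0% to 100% of the counts in Ag+Costim, where Fos had 37 to 99 counts, and 88.5% to 98.6% in Ag. Transcripts of Fosb and Batf3 rested on few counts in each library (at most 207 on Batf3-201 and 40 on Fosb-201), and shares ran from 0% to 100%, so no order is read from them. Jun, Junb and Jund had all their counts on 1 single-exon transcript.

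The windows of 250 bases before the RefSeq start (GRCm38.p6) were searched on both strands in the 9 genes that had one, all but Fosl1. The searched letters were TGANTCA (the AP-1 element), TGACGTCA (the cAMP response element), its first letters TGACG and TGACATCA (the Jun-type variant), and the longer motifs were the core of the interferon-stimulated response element and the AP-1-IRF composite element in 2 spacings. TGACG was in the windows of Fos, Fosb, Junb and Batf, against 17.8% of all 32851 windows, TGACATCA was in that of Jun, against 2.93%, and the interferon-stimulated response core was in that of Fosl2, against 2.98%. TGANTCA (6.75% of all windows), TGACGTCA (1.55%) and the composite elements (0.0974% and 0.119%) matched none of the 9, which says only that these letters are not in these windows. TGACG is also the beginning of TGACGTCA. The windows of Fos and Junb, both lower in Ag+Costim than in Ag, of Jun and of Irf4, which rose, are shown 5′ to 3′ on the strand of the gene, with matches in capitals.
Fos, chr12:85473640-85473889, plus strand: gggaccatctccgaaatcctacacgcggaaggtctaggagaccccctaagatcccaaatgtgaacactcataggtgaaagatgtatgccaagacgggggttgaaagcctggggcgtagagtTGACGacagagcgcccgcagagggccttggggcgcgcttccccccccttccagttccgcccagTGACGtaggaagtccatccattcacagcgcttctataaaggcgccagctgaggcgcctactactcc
Junb, chr8:84978749-84978998, minus strand: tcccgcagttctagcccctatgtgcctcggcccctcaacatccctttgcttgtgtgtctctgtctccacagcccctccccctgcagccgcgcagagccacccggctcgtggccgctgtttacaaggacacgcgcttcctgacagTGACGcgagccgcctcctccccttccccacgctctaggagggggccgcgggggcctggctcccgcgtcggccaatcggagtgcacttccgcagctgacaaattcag
Jun, chr4:95052223-95052472, minus strand: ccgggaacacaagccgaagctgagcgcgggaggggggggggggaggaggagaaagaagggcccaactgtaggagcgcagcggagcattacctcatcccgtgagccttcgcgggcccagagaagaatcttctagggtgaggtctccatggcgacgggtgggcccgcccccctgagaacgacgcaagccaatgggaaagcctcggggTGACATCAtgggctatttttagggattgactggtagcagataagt
Irf4, chr13:30748983-30749232, plus strand: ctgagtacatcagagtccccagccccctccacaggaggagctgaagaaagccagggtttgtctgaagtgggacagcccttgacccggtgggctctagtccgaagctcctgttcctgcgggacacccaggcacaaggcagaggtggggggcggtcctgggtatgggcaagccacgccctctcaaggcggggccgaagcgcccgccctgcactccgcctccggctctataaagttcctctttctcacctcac

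In the Fos window the matches began at bases -129 and -66 from the start, in the Junb window at -106 and in the Jun window at -45, and the Irf4 window held none of the searched letters. The RefSeq start of Jund lies far upstream of the GENCODE transcript that carried its counts, so its window does not border that transcript. The RefSeq starts of Fosl2 and Batf3 lie 671 and 567 bases downstream of the GENCODE gene starts. Their windows, with the Fosl2 match, therefore lie inside the GENCODE genes. A match is a description of letters and says nothing about binding in these cells.

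Genes related to these factors were described by counts in 7 lists. Among 18 other immediate-early genes, which like Fos follow receptor signals, 12 were called below Ag in Ag+Costim and 3 above, against 26.5% lower and 26.6% higher over all genes, with a median log2 ratio of -0.70. Under upper-quartile scaling, and likewise with the length trend removed, 14 were lower and 3 higher. Egr1, a zinc finger factor, had 67.2 ± 10.3 CPM in Ag and 19.3 ± 1.36 CPM in Ag+Costim (SD, n = 5 each, log2 ratio -1.80, SE 0.13, edgeR adjusted p = 1.84e-07), and Egr2, which restrains T cell responses, had 32.3 ± 4.13 and 4.72 ± 1.97 CPM (log2 ratio -2.77, SE 0.28). All Ag+Costim libraries lay below all Ag libraries for both. The genes with the largest rises were Ier3 (0.90), a survival factor, and Myc (0.89), which drives growth, from 73.6 ± 16.6 to 136.7 ± 17.9 CPM. From Naive to Ag, 4 of the 18 were called higher and 6 lower (24.2% and 22.5% over all genes), and Nr4a2, a nuclear receptor, rose by 5.10 and Cd69, an early activation marker, fell by 1.22 on the log2 scale. Against Naive, Ag+Costim had 4 higher and 12 lower (26.9% and 25.4% over all genes).

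Heat-shock genes, which can rise during tissue handling, moved the other way. Of 10, 8 were called above Ag in Ag+Costim and none below (26.6% and 26.5% over all genes; 6 above under upper-quartile scaling), with a median log2 ratio of 1.32, and Hsph1 rose from 73.9 ± 10.4 to 270.0 ± 64.3 CPM and Hsp90aa1 from 224 ± 45.6 to 731 ± 156 CPM (SD, n = 5 each). Against Naive, Ag had none called higher and 1, Dnajb4, called lower, beside 24.2% and 22.5% over all genes. The Dnajb4 call was lost without Naive 1, without Naive 2 and under upper-quartile scaling. With the length trend removed it was also lost (log2 ratio -0.35), and 2 heat-shock genes were then called higher. Erythroid markers also differed, with sums of 149.6 and 2069 CPM in Naive, 626 to 6379 CPM in Ag and 14.5 to 223 CPM in Ag+Costim. All 6 were called lower in Ag+Costim than in Ag, beside 26.5% over all genes. The part of handling and of other cells in the Fos and immediate-early differences was not tested.

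The MAP kinase phosphatases switch off the kinases upstream of AP-1. Against Ag, Ag+Costim had 2 of the 8 tested called higher and 4 called lower, beside 26.6% and 26.5% over all genes, so that the number called higher was at the background. Dusp2 had 325.8 ± 81.0 CPM in Ag and 48.8 ± 20.1 CPM in Ag+Costim (log2 ratio -2.74, SE 0.27, edgeR adjusted p = 1.73e-06) and stood at 54.0 ± 4.04 CPM in Naive (SD, n = 2). Dusp6, which acts on ERK, had log2 ratios of 1.64 in Ag against Naive and of -1.50 in Ag+Costim against Ag. Dusp5, also an ERK phosphatase, had a log2 ratio of 1.69 (SE 0.24) in Ag+Costim against Ag. Among the 32 upstream kinases and factors, 12 were called higher and 8 lower, beside the same 26.6% and 26.5%, with a median of 0.17. The balance turned to 10 higher and 11 lower (median -0.025) under upper-quartile scaling and to 10 higher and 12 lower (median -0.10) with the length trend removed. Mapk3, which is ERK1, rose by 1.74 (SE 0.12) and Map2k3, a p38 activator, by 1.41 (SE 0.09), whereas Elk3, a partner of SRF, fell by 1.24 and Map3k5 fell by 1.04. Between Naive and Ag, 8 of the 32 were called higher and 13 lower (10 and 9 with the length trend removed, and 24.2% and 22.5% over all genes), with the largest fall in Map3k14, the kinase of the alternative NF-kB pathway, at -2.67 (SE 0.13).

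Other bZIP and IRF genes did not follow one direction. Of 24 other bZIP genes, 7 were called above and 5 below Ag in Ag+Costim and 12 were not called, against 53.1% called over all genes, with a median of 0.28. Under upper-quartile scaling 5 were above and 7 below, with a median of 0.079. Bach2, a repressor that competes at AP-1 sites in CD8+ T cells, fell stepwise from 73.6 ± 18.8 CPM in Naive (SD, n = 2) through 26.4 ± 0.950 in Ag down to 9.87 ± 4.77 in Ag+Costim (SD, n = 5 each), with log2 ratios of -1.48 (SE 0.30) and -1.42 (SE 0.25), both called. Atf6, an endoplasmic reticulum stress factor, rose by 1.65 and Nfil3 fell by 1.00 in Ag+Costim against Ag. Of 8 other IRF genes, 2 were called higher and 4 lower in that comparison (26.6% and 26.5% over all genes). Irf8, which can also pair with BATF, went from 5.92 ± 1.87 CPM in Naive through 38.4 ± 6.44 in Ag up to 89.9 ± 11.5 in Ag+Costim, with log2 ratios of 2.69 (SE 0.22) and 1.23 (SE 0.14), both called. Irf5 rose by 3.61 from Naive to Ag and by 0.86 from Ag to Ag+Costim, where its libraries overlapped, and Irf3, a sensor pathway factor, was lower in Ag+Costim than in Ag by a log2 ratio of -0.42.

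Of 16 genes known as targets of AP-1, BATF or IRF4 in T cells, 7 were called above and 6 below Ag in Ag+Costim (26.6% and 26.5% over all genes), with a median of 1.24 that was 0.35 on log2(FPKM + 1). Il2ra, the IL-2 receptor alpha chain, rose by 4.93 (SE 0.47) and Il12rb2, an IL-12 receptor chain, by 4.47 (SE 0.41). Ctla4, an inhibitory receptor, fell by 1.75 (SE 0.21) and Ccr7, a lymph node homing receptor, fell by 1.53 (SE 0.19). From Naive to Ag 9 were called higher and 1 lower, beside 24.2% and 22.5% over all genes. From Naive to Ag+Costim 12 were called higher and 2 lower, beside 26.9% and 25.4%, and those lower included Tcf7, a factor of naive and memory cells, at -1.57 (SE 0.23).

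**Figure D5:**
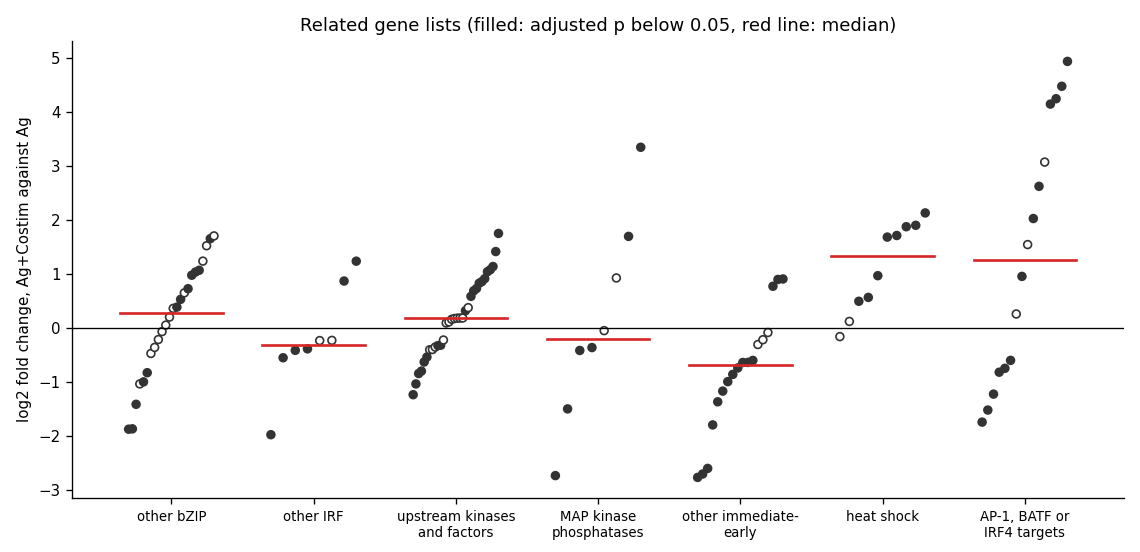
Each point is a gene of 1 of 7 lists, plotted by its log2 ratio in Ag+Costim against Ag (vertical axis), filled at an adjusted p below 0.05, with the median of the list in red. The immediate-early list lies mostly below 0 (median -0.70) and the heat-shock list mostly above (median 1.32), while the other lists spread to both sides.

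For each gene, the 2 genes whose log2 CPM ran most alike over the 12 libraries were named among the 9252 or 9253 other genes with a mean log2 CPM above 3. Irf4 ran with Dtl (Pearson r = 0.99) and Fancd2 (r = 0.99), which act in DNA replication and repair and went from 2.38 and 0.575 CPM in Naive through 30.7 and 10.3 in Ag up to 149.0 and 62.1 in Ag+Costim. Jund ran with Dusp2 (r = 0.98) and Smim19 (r = 0.98), Fos with Wdyhv1 (r = 0.99) and Mob4 (r = 0.98), and Batf with Plpp5 and Mrpl20 (r = 0.98 each). On log2(FPKM + 1) the r of Fos with Mob4 was 0.87. Junb ran with Pcnx4 and Ccdc91 (r = 0.94 each), Batf3 with Swap70 (r = 0.93) and Tedc2 (r = 0.92), and Fosl2 with Jade2 and Ice1 (r = 0.92 each). For Fosb (Sh2d1a, r = 0.85, and Arpc3, r = 0.84) and Jun (Tatdn1, r = 0.80, and Tmem11, r = 0.78) the likeness was lower. These correlations describe 12 libraries that share their group structure and are given without a test.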

How the data were processed

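RNA of sorted OT-I CD8+ T cells (SMART-Seq v4 and Nextera XT, single-end reads of 100 bases) was sequenced in 12 libraries. Per the methods and the submitters' processing notes, the authors aligned reads to mm10 with HISAT2 2.1.0 and SAMtools 1.9 and deposited gene and transcript counts that StringTie 2.1.0 derived from coverage, so that a count is an estimate of reads. Their notes also name DESeq2 1.30.1 and R 4.0.5. The deposited FPKM table was made by the authors with StringTie and was summed per gene here. The authors also deposited Whippet Psi values, a fraction pooled over each group, with columns of their own comparison that were not used. The percent of reads aligned, as given by the authors, was 72.3 to 76.5. Gene counts could exceed the reads sequenced, as in Ag+Costim 3, with 49294934 counts from 45971065 reads. Whether counting used strand was not given in the sources used here.

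Of 81881 entries in the gene table, 26345 without an annotated gene (0.0508% to 0.121% of the counts) were left out. The quasi-likelihood test of edgeR 4.0.16 was used with TMM scaling, filterByExpr and 1 term per group over all 12 libraries, two-sided, with Benjamini-Hochberg adjustment over 18817 genes. Other tools were limma 3.58.1 and DESeq2 1.42.0 in R 4.3.3, and numpy 2.4.6, pandas 2.3.3, scipy 1.17.1 and matplotlib 3.10.9 in Python 3.11.15. An exact permutation test of transcript shares was run, but its p is not given, since 1 of the 2 transcripts passed the filter on shares through Ag+Costim alone. The fit was tested on simulated data for Ag+Costim against Ag, with a true log2 change of 1 in size given to 200 of 18048 genes. It called 90 of the 200 in the right direction and made 3 false calls, so changes of this size could go uncalled in that setting. In the data 53.1% of the genes tested were called in this comparison. The adjusted threshold therefore differs, and the share recovered does not carry over to the data. A count of 0 allows up to 3 counts, which covers counting error only. Samples were grouped by their labels. Alternatives changed the scaling, the filter, the libraries, the unit, a term for Y-linked transcripts, the trend with gene length, the replicate block or the test.

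The 10 genes, the 7 gene lists and the marker lists were chosen with earlier results of these data known. All 10 genes were named. From each list, up to 2 genes with the largest rise and up to 2 with the largest fall were eligible to be named in each comparison, among genes called with a mean log2 CPM above 3. For each of the 9 tested genes, the 2 genes with the highest Pearson correlation were named. Lengths and transcripts came from GENCODE vM21 and promoter windows from RefSeq.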

Additional observations from a re-analysis of the deposited data

Results flagged for a closer look

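Single libraries stood apart from the other 4 of their group in 3 of 20 sets of CPM values (each of the 10 genes in Ag and in Ag+Costim), by a gap to the nearest library that was a larger part of the range than Dixon's 95% critical value of 0.710 for 5 samples. Chance alone gives about 1 in 20 such sets. Fosl2 was at 4.46 CPM in Ag+Costim 2 beside 2.42 to 2.75 CPM in the others. Batf3 was at 3.09 CPM in Ag 4, the library with the lowest total count, beside 0.625 to 1.30 CPM, and at 7.53 CPM in Ag+Costim 5 beside 2.23 to 3.73 CPM. Ag+Costim 5 also had the highest Itgam, 31.7 CPM, but none of the other listed monocyte, macrophage and neutrophil markers was highest there. Without Ag+Costim 5 the Batf3 log2 ratio between Ag+Costim and Ag was 1.09 and not called, and without Ag 4 it was 2.01. The part of depth and of other cells in these values was not tested.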

How the results depend on the processing

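All values are log2 ratios unless said otherwise. In Ag+Costim against Ag, Fos, Jund and Irf4 kept their direction and their call under every alternative run. Upper-quartile scaling turned Batf to -0.052, called Jun (-1.04), called Jund against Naive (-0.38) and ended the Fosl2 call in Ag against Naive (-0.76), and it split the genes called between Ag+Costim and Ag into 4056 higher and 6338 lower in place of 5006 and 4979. Removal of the length trend called Fosl2 (-0.61) and Batf (0.40) and ended the Junb call (-0.21) between Ag+Costim and Ag, ended the Fosl2 call (-0.33) and turned Junb (-0.057) in Ag against Naive, and ended the Junb call against Naive in Ag+Costim (-0.27). Without the filter on low counts, the calls of Fosl2 in Ag against Naive (-0.81) and of Junb in Ag+Costim against Naive (-0.38) were lost. With 2 groups only, Fosl2 lost its call (-0.81) in Ag against Naive and Jun was called (-0.70) in Ag+Costim against Naive. DESeq2 called Jun in Ag+Costim against Ag (-0.83) and Batf3 in Ag against Naive (1.56). On log2(FPKM + 1), with or without a mean FPKM of at least 1, Jun (-0.14) and Junb (-0.16) turned in Ag against Naive and Jund was called against Naive in Ag+Costim (-0.45). On log2(FPKM + 0.1) these were -0.26, -0.16 and -0.45. On log2(FPKM + 1), 7302 genes were called lower in Ag+Costim than Naive in place of 4778. That fit took in every gene with any FPKM and not only those past the count filter. With a mean FPKM of at least 1 required, 4673 were called lower. The causes were not tested.

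With the replicate number as a block, Fosb turned in Ag against Naive (-0.29), and Fosl2 in Ag against Naive (-0.74) and Junb in Ag+Costim against Naive (-0.30) lost their calls. The mean Irf4-202 and Irf4-201 differences over same-numbered pairs were 45.4 and -45.9 percentage points, for which no p is given. Same-numbered Ag and Ag+Costim libraries deviated together with correlations of 0.0159 to 0.0951, and the main fit did not pair them. The classes of Y-linked transcripts did match by number, with replicates 1 and 2 of both groups in the class with such transcripts. The numbers may therefore carry shared structure, which the replicate block allows for. Replicates 1 to 3 correlated best with their own number, and 4 and 5 with each other.

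With each library left out in turn, Ag against Naive ranged from -0.66 to 0.14 for Fos, -0.98 to -0.71 for Fosl2, -0.26 to 0.36 for Jun, -0.053 to 0.093 for Junb, and 2.47 to 3.50 for Irf4. Ag+Costim against Ag ranged from -1.07 to -0.44 for Jun and 1.09 to 2.01 for Batf3, and Ag+Costim against Naive from -0.47 to -0.33 for Junb, 2.39 to 4.30 for Batf3 and 4.26 to 5.28 for Irf4. The genes called in Ag against Naive ranged from 2906 to 4944 higher and 2807 to 4625 lower, both lowest without Naive 2, and in Ag+Costim against Naive from 3364 to 5143 lower. A share of FPKM for single transcripts was not run. The 2 Naive libraries limit every comparison with Naive. Fosl1 had counts near the floor, and Fosb had at most 43 counts in a library.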
